A study of Homo sapiens with 15 samples.

Results

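The 41 genes described here encode the main trans-acting factors of pre-mRNA splicing. They comprise 12 SR proteins (SRSF1 to SRSF7, SRSF9, SRSF10, SRSF11, TRA2A and TRA2B), 14 heterogeneous nuclear ribonucleoproteins (hnRNPs; HNRNPA0, HNRNPA1, HNRNPA2B1, HNRNPA3, HNRNPC, HNRNPD, HNRNPF, HNRNPH1, HNRNPK, HNRNPL, HNRNPM, HNRNPR, HNRNPU and PTBP1) and 15 core spliceosome factors (SF3A1, SF3A2, SF3A3, SF3B1, SF3B2, SF3B3, SF3B4, U2AF1, U2AF2, PRPF3, PRPF8, PRPF19, PRPF31, SNRNP70 and SNRNP200). They were taken by symbol from families and complexes, and all 41 were found among the 19821 protein-coding genes of the annotation. The families are not complete here. SRSF8, SRSF12 and other hnRNP and spliceosome genes are counted in separate lists below. For each gene, G-quadruplex signal was counted at its promoter, defined as the sequence within 1 kb of any of its protein-coding start sites.

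G-quadruplexes were mapped by chromatin immunoprecipitation and sequencing with BG4, an antibody against the 4-stranded DNA structures that G-rich sequence can form. The cells were K562, an established line from a patient with chronic myeloid leukaemia, grown asynchronously without treatment. There were 2 biological replicates, with technical libraries 1a and 1c in the first and 2a, 2b and 2c in the second, and nothing in the labels says how the biological replicates were separated. The 2 K562 input libraries and the 8 bisulfite libraries of HaCaT keratinocytes, 4 of them given entinostat (10 uM, 48 h) and 4 of them controls, were not analysed here. The 5 lists held 12495 (1a), 10079 (1c), 8059 (2a), 9026 (2b) and 11111 (2c) peaks. The names of the peaks in list 2a bear the letter c and those in list 2c the letter a, and the sample labels were followed. The high-confidence list held 8940 regions outside the mitochondrial chromosome, and each of them was returned, base for base, as sequence covered by peaks of at least 3 of the 5 libraries. At promoters there were 6848 of these regions. The 3 genes CDKN2A, CDKN2B and MTAP, known to be deleted in K562, had no peak in any library. The same held for 52.3% of all protein-coding genes. A promoter region was found at 2 of 6 erythroid marker genes and 0 of 4 lymphoid ones, against 34.8% of all protein-coding genes. A strict CpG island, as defined below, was present at 3 of the 6 erythroid genes and 0 of the 4 lymphoid ones. Of all genes without such an island only 2.44% had a region, so the lymphoid count cannot speak to cell type.

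SR proteins carry a domain rich in arginine and serine, bind exonic enhancers and recruit the spliceosome to nearby splice sites. The hnRNPs coat nascent RNA and often act in the opposite direction, by binding silencers. The core factors recognise splice sites or take part in assembling, activating and carrying out the reaction, most of them as parts of the small nuclear ribonucleoproteins. Many of these genes are transcribed in nearly all cell types from promoters in CpG islands. A G-quadruplex forms where runs of G lie close together on a strand and stack as tetrads, and in sequence such a site is usually written as 4 G-runs, each at least 3 long, joined by loops of 1 to 7 bases, called a G4 motif here.

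The motifs inside the regions of the splicing genes show what this sequence looks like at these promoters. They are written 5' to 3' on the G-rich strand in the GRCh37 (hg19) sequence, with the runs of G in capitals. Motifs that overlap an untranslated region are left out. The motif of HNRNPA2B1 lay at chr7:26241210-26241234 on the - strand, those of HNRNPF at chr10:43892284-43892307, chr10:43892336-43892354 and chr10:43904809-43904826 on the + strand, that of HNRNPL at chr19:39340656-39340678 on the - strand, and those of HNRNPU at chr1:245026413-245026435 and chr1:245026603-245026620 on the - strand. All 4 genes are encoded on the - strand, so the motifs of HNRNPF lay on the template strand and the others on the coding strand.
HNRNPA2B1: GGGaattGGGGccctaGGGGGaGGG
HNRNPF, first: GGGGagagtGGGGGcaGGGacGGG
HNRNPF, next: GGGaGGGGGaGGGGaGGGG
HNRNPF, last: GGGaGGGGaGGGGaGGGG
HNRNPL: GGGtGGGGGcggcGGGtgacGGG
HNRNPU, first: GGGaggagccGGGcGGGGcGGGG
HNRNPU, second: GGGcGGGcggcGGGaGGG

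The next 3 sequences are whole high-confidence regions outside untranslated sequence, shown because each had a peak in all 5 libraries and holds a G4 motif. Capitals mark the motifs. The U2AF1 region (chr21:44527683-44527925, - strand, the coding strand) lay just upstream of the start site. The HNRNPL region (chr19:39342526-39342790, - strand, the coding strand) lay in an intron, with its middle 307 bp downstream of an alternative start site. The PTBP1 region (chr19:797769-798009, - strand, the template strand) lay in an intron and holds both of its motifs side by side.
U2AF1: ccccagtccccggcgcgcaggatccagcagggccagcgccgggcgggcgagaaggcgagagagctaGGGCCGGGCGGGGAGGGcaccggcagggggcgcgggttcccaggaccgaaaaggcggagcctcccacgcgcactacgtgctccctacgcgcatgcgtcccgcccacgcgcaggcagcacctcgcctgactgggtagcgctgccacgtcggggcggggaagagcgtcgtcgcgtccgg
HNRNPL: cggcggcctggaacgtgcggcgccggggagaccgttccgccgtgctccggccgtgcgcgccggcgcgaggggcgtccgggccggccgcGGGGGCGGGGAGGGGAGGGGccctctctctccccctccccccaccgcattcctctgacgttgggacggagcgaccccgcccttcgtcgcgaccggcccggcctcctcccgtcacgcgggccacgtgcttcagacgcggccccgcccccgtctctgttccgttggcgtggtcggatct
PTBP1: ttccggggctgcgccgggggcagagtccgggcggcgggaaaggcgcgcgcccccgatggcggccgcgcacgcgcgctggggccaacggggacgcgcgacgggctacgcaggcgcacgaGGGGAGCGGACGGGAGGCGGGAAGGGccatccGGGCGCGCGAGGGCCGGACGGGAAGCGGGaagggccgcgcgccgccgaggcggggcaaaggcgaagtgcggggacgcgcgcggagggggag

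Of the 41 splicing genes, 31 had a high-confidence region at the promoter (75.6%, 95% Wilson interval 60.7 to 86.2), against 6904 of 19821 protein-coding genes (34.8%). By class the count was 10 of 12 SR protein genes (83.3%, interval 55.2 to 95.3), 12 of 14 hnRNP genes (85.7%, 60.1 to 96) and 9 of 15 core factor genes (60%, 35.7 to 80.2). The 3 intervals overlap, and the difference between classes was not tested. These intervals cover counting error only. All 41 splicing genes had a strict CpG island overlapping the promoter, against 75.4% of all protein-coding genes. A region was found at 45.4% of genes with such an island and at 2.44% of genes without one. Among genes with an island the share also went with the number of annotated start sites, from 33.5% of genes with 1 start site through 43.3% with 2 to 3 and 49.5% with 4 to 6 to 54.1% with 7 or more. Among genes without an island the shares were 1.1%, 2.45%, 5% and 6.46% in the same order. At the rates of genes with the same island status and the same class of start site number, 19.4 of the 41 splicing genes would carry a region, as would 5.51 of the 12 SR protein genes, 7.21 of the 14 hnRNP genes and 6.66 of the 15 core factor genes. The count of core factor genes lay nearest to its rate. The part that island and start sites have in the counts was not tested.

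**Figure D1:**
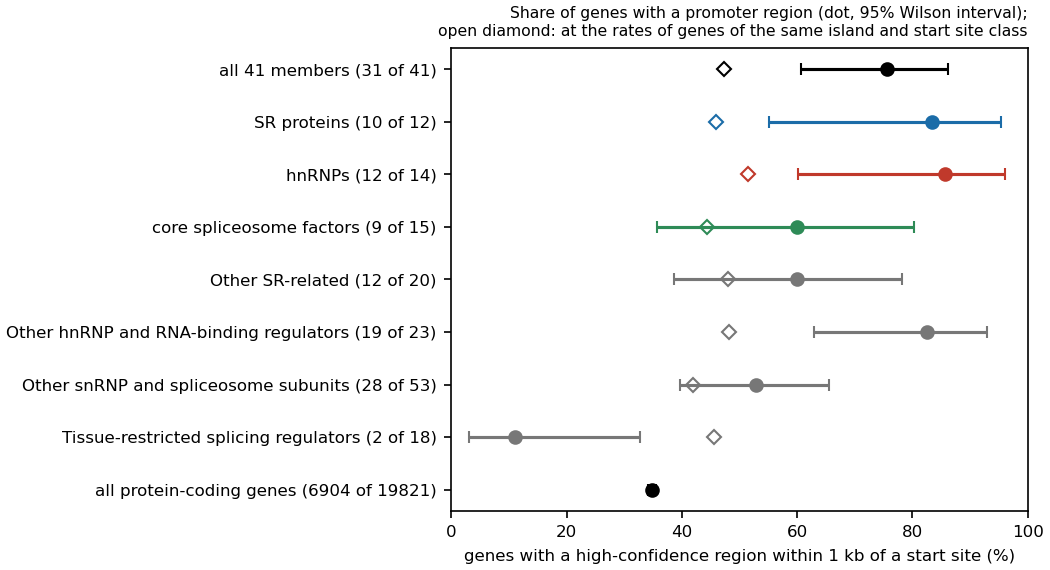
Share of genes with a high-confidence region within 1 kb of a start site, in percent, for the 41 splicing genes, their 3 classes, 4 lists of other splicing genes and all protein-coding genes. Dots are shares with 95% Wilson intervals, and open diamonds give the share at the rates of genes of the same island and start site class. In every row with a diamond the dot lies right of it, except for the tissue-restricted regulators, which stand at 11.1%, left of theirs. The intervals cover counting error only, and the distance between dot and diamond was not tested.

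A promoter peak was present at 33, 31, 32, 31 and 29 of the 41 splicing genes in libraries 1a, 1c, 2a, 2b and 2c. The corresponding shares of all protein-coding genes were 38.5%, 32.6%, 31.9%, 35.5% and 39%. Averaged within each biological replicate first, the count was 31.3 ± 0.943 of 41 genes (SD, n = 2). A peak in all 5 libraries was found at 24 splicing genes (58.5%), against 23.1% of all protein-coding genes. At the other end, 3 splicing genes (7.32%) had no peak in any library, against 52.3% of all protein-coding genes. Between these ends, 3 splicing genes had a peak in 1 library (7.32%, against 6.62% of all protein-coding genes) and 4 had one in 2 libraries (9.76%, against 5.44%). Another 3 had one in 3 libraries (7.32%, against 5.42%) and 4 had one in 4 libraries (9.76%, against 7.13%). With the stricter demand that 1 region hold a peak of every library, 22 splicing genes remained (53.7%), against 22.2% of all protein-coding genes. They were 5 SR protein, 9 hnRNP and 8 core factor genes.

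**Figure D2:**
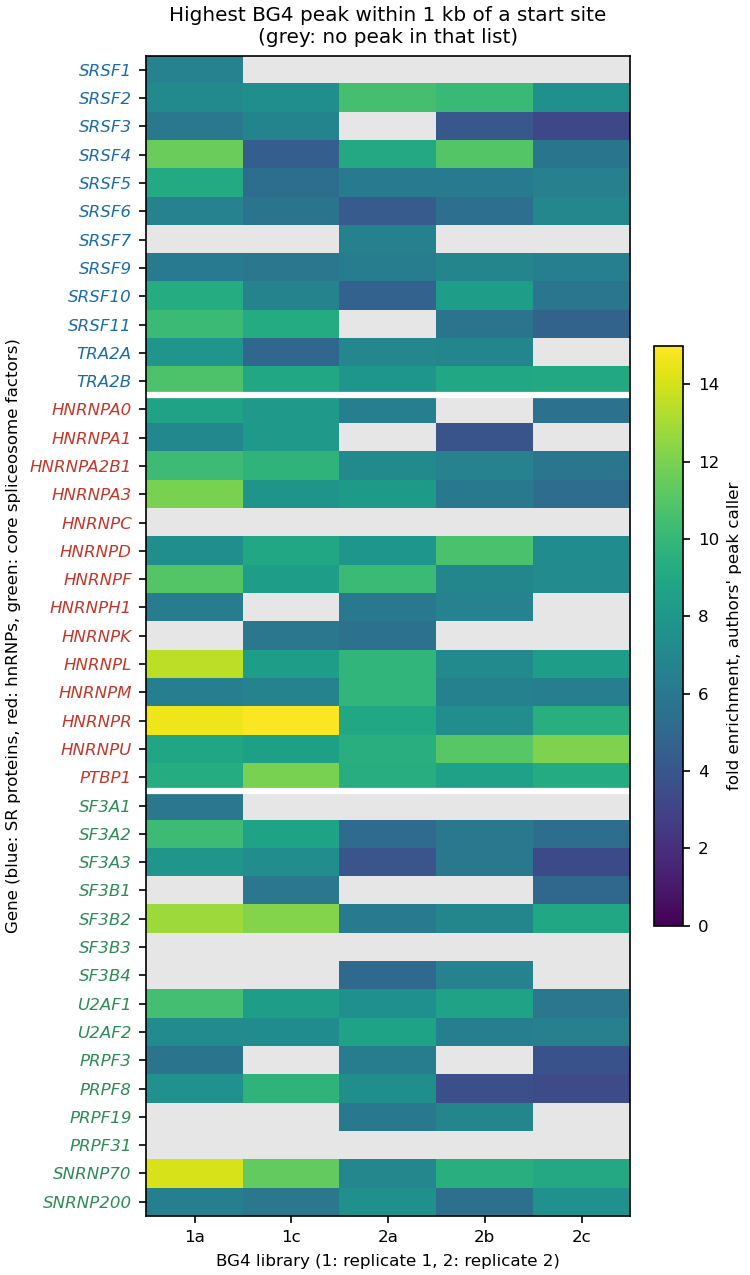
Fold enrichment of the highest BG4 peak within 1 kb of a start site, which can lie at different sites in different libraries, by colour, for each of the 41 genes (rows, by class) in each of the 5 libraries (columns). Grey marks a library with no peak there; HNRNPC, SF3B3 and PRPF31 are grey throughout, and HNRNPR in libraries 1a and 1c has the highest values, 14.6 and 14.9.

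The height of a peak was the authors' fold enrichment at its summit, used to rank peaks within their own list. A percentile is the share of that list's peaks with a fold at or below the value. For a gene the highest promoter peak of each library was taken, and these need not lie at the same site: of the 24 genes with a peak in all 5 libraries, 9 took their values from more than 1 site and 15 from 1 region. Over all libraries the highest promoter peaks of SR protein genes had folds between 3.26 and 11.6 (median 6.72), those of hnRNP genes between 3.89 and 14.9 (median 8.19) and those of core factor genes between 3.37 and 14.1 (median 6.87). For all protein-coding genes the range was 2.19 to 25.8 and the median 7.06. For genes with a peak in all 5 libraries, the lowest percentile over the libraries had a median of 25.7 for SR proteins, 63.8 for hnRNPs and 36.9 for core factors, against 40.3 for all protein-coding genes. For single regions with a peak in all 5 libraries the same median was 37.7 over 5 SR protein regions, 44.7 over 18 hnRNP regions and 35.9 over 8 core factor regions, against 38.1 over 4028 promoter regions. A peak that reached over neighbouring regions was counted for each of them, as at HNRNPF and HNRNPL. The classes lay closer together by region than by gene, and their differences were not tested.

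Among the SR proteins, TRA2B and SRSF2 held the highest rank in the library where they stood lowest. TRA2B, a relative of the fly sex-determination factor transformer-2 that binds GA-rich exonic enhancers, had folds of 10.8 (1a), 8.91 (1c), 7.86 (2a), 8.98 (2b) and 9.09 (2c), with 9.26 ± 0.868 as the mean over biological replicates (SD, n = 2). All 5 stood at or above percentile 68.4 of their lists. SRSF2, an exonic enhancer protein recurrently mutated in myeloid neoplasms, had folds of 7.15 (1a), 7.48 (1c), 10.6 (2a), 10.1 (2b) and 7.5 (2c). Libraries 2a and 2b were the high ones, at percentiles 92.3 and 93.9, and 1a the low one, at 57.1. SRSF9 had nearly even folds of 6.2 (1a), 5.95 (1c), 6.3 (2a), 6.85 (2b) and 6.5 (2c), and a mean of 6.31 ± 0.337 (SD, n = 2). The SRSF5 region (chr14:70234459-70234606) had folds of 9.19 (1a), 5.42 (1c), 6.25 (2b) and 6.1 (2c), so that library 1a stood above the other 3. A separate SRSF5 start site had peaks of fold 6.18 (2a) and 6.53 (2c) and no region.

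SRSF4, SRSF6 and SRSF10 also had a promoter peak in every library, with lowest percentiles of 9, 4.2 and 8.01. SRSF4 was uneven, with folds of 11.6 (1a), 4.51 (1c), 9.06 (2a), 11 (2b) and 5.84 (2c). SRSF5 and SRSF6 had a promoter peak in every list but no region shared by all 5 libraries, since at SRSF5 the peak of library 2a lay apart from the region of the other 4. At SRSF6 the peaks fell into separate regions, one over the start site (chr20:42086446-42086584, peaks in 1a, 1c, 2b and 2c) and one in a coding exon and intron (chr20:42086881-42087062, peaks in 1a, 2a and 2c).

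SRSF3, SRSF11 and TRA2A had a peak in 4 libraries. SRSF3, which promotes exon inclusion and mRNA export, had folds of 5.98 (1a), 6.75 (1c), 4.08 (2b) and 3.26 (2c) and none in 2a. Its values in 2b and 2c stood at percentiles 5.64 and 1.39 of their lists. SRSF11 had its only region at an alternative start site, with its middle -15725 bp from the canonical start. The region had folds of 7.03 (1a), 9.21 (1c), 5.76 (2b) and 4.8 (2c), again with no peak in 2a. Library 1a had a further peak of fold 10.2 at another SRSF11 start site (chr1:70686948-70687159), outside any region. TRA2A had folds of 7.84 (1a), 5.04 (1c), 6.97 (2a) and 6.88 (2b) and no peak in 2c.

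SRSF1 and SRSF7 were the SR protein genes without a region, each with a single peak. SRSF1, the prototype SR protein, had a peak of fold 6.64 in library 1a (chr17:56085020-56085186), with the summit at -456 bp from the start site, and its nearest high-confidence region was 75910 bp away. SRSF7 had a peak of fold 6.58 in library 2a (chr2:38978530-38978677). Both peaks stood near the middle of their lists, at percentiles 47.4 and 46.4.

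Among the hnRNPs, PTBP1, HNRNPU, HNRNPR and HNRNPL had a highest promoter peak at or above percentile 68 in every library, which for all but HNRNPR combines several regions. PTBP1 binds pyrimidine tracts and represses neuronal exons. Its region over the start site (chr19:796923-797445) had folds of 7.09 (1a), 12 (1c), 9.32 (2a), 8.59 (2b) and 9.2 (2c). Its intronic region, printed above, had 9.3 (1a), 4.71 (1c), 5.91 (2a), 7.03 (2b) and 6.5 (2c). Library 1c was thus the highest at one region and the lowest at the other. HNRNPU is also known as scaffold attachment factor A. Its region at the canonical start site (chr1:245027751-245028084) had folds of 8.86 (1a), 8.53 (1c), 7.48 (2a), 11.1 (2b) and 12.1 (2c). Its other region (chr1:245026308-245026653) had 7.1 (1a), 7.39 (1c), 9.45 (2a), 7.74 (2b) and 7.94 (2c), so that library 2a was the lowest at one region and the highest at the other. The single region of HNRNPR (chr1:23670753-23671265) had folds of 14.6 (1a) and 14.9 (1c) above 8.98 (2a), 7.34 (2b) and 9.42 (2c), and its mean was 11.7 ± 4.37 (SD, n = 2). HNRNPL binds CA repeats, and its intronic region printed above had folds of 13.5 (1a), 8.13 (1c), 6.79 (2a), 7.19 (2b) and 7.33 (2c), with library 1a apart from the other 4.

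Several hnRNP genes carried more than 1 region. Of the 41 splicing genes, 9 had 2 or more regions at the promoter, against 4.89% of all protein-coding genes, and 6 of the 9 were hnRNP genes. HNRNPF and HNRNPL had 4 each, and HNRNPA2B1, HNRNPA3, HNRNPU and PTBP1 had 2 each. The others were SRSF6, SF3A2 and U2AF2. The hnRNP genes also had more annotated start sites, with a median of 10.5, against 3 for all protein-coding genes, which widens the sequence counted as promoter. HNRNPF encodes a protein that binds G-tracts in RNA. Its 4 regions, at chr10:43892165-43892480, chr10:43892641-43892856, chr10:43904219-43904461 and chr10:43904606-43904854, lay over separate start sites in pairs, and all 4 had a peak in every library. In library 2c a single peak (chr10:43892211-43892856) reached over both regions of the pair near 43892165. The last of the 4 had folds of 11 (1a), 5.03 (1c), 10.2 (2a), 6.88 (2b) and 5.86 (2c), so that libraries 1a and 2a stood above the other 3 there. The 4 regions of HNRNPL, from chr19:39339999-39340215 to chr19:39342526-39342790, also had a peak in every library. In libraries 1a and 1c a single peak reached over both its regions chr19:39340596-39340814 and chr19:39340970-39341360. HNRNPD, HNRNPM and HNRNPA2B1 each had a region with peaks in all 5 libraries, with lowest percentiles of 59.6, 43.2 and 46.3. Both regions of HNRNPA3 did too, with lowest percentiles of 19.3 and 14.

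HNRNPA0, HNRNPA1 and HNRNPH1 had a peak in 3 or 4 libraries. HNRNPA0 had folds of 8.65 (1a), 8.13 (1c), 6.5 (2a) and 5.68 (2c) and no peak in 2b. HNRNPA1, the prototype silencer-binding hnRNP, had folds of 7.03 (1a), 8.13 (1c) and 3.89 (2b), and its region of 99 bp (chr12:54674348-54674446) had a GC content of 51.5%, the lowest among the regions of the splicing genes. HNRNPH1, a close relative of HNRNPF, had folds of 6.13 (1a), 6.04 (2a) and 6.65 (2b) at a region of 70 bp. The regions of HNRNPA1 and HNRNPH1 each rest on 3 libraries, the fewest a region can have, so leaving out any of them necessarily removes the region.

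HNRNPK and HNRNPC were the hnRNP genes without a region. HNRNPK, which binds C-rich single strands in RNA and DNA, had a peak of fold 5.96 in library 1c and one of fold 5.62 in library 2a (both within chr9:86595180-86595739), which did not overlap each other. HNRNPC, which binds U-tracts, had no promoter peak in any library. Its nearest peak in any list was 114902 bp from a start site, in library 1c, although HNRNPC had 18 annotated start sites and a CpG island.

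Among the core factors, U2AF2 recognises the polypyrimidine tract. Its region over the start site (chr19:56166219-56166446) had folds of 6.13 (1a), 7.32 (1c), 8.72 (2a), 6.5 (2b) and 6.55 (2c), and a mean of 6.99 ± 0.376 (SD, n = 2). Its lowest percentile there was 37.2, in library 1a. A second, narrower region (chr19:56165793-56165879) had peaks in 1a, 2a and 2b. U2AF1 recognises the AG at the end of the intron and had folds of 10.5 (1a), 8.35 (1c), 7.54 (2a), 8.66 (2b) and 5.97 (2c). SNRNP70, which contacts the first stem-loop of U1 RNA, had folds of 14.1 (1a), 11.4 (1c), 6.97 (2a), 9.39 (2b) and 9.05 (2c). Both libraries of replicate 1 stood above the 3 of replicate 2, and the mean was 10.6 ± 3 (SD, n = 2).

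The genes of the U2 particle differed among themselves. SF3B2 had folds of 12.8 (1a), 12.2 (1c), 6.22 (2a), 6.88 (2b) and 8.95 (2c), and SF3A2 and SF3A3 also had a region with peaks of all 5 libraries. That of SF3A2 had folds of 10.3 (1a), 8.68 (1c), 5.24 (2a), 4.85 (2b) and 3.8 (2c). SF3A3 had folds of 7.81 (1a), 7.37 (1c), 3.93 (2a), 5.98 (2b) and 3.37 (2c). Libraries 2a and 2c stood at percentiles 1.78 and 1.9, while 2b stood at 45.3, and 1a and 1c at 64.5 and 65.3. SF3A1, SF3B1, SF3B3 and SF3B4 had no region. The count was thus 3 of the 7 SF3A and SF3B genes of the list, near the 45.4% of all genes with a CpG island. Of the other subunits of these complexes, SF3B6 had a region with peaks in all 5 libraries, and SF3B5 and PHF5A had none. SF3B1, which grips the branch site and is recurrently mutated in myelodysplastic syndromes, had peaks of fold 5.96 (1c) and 5.03 (2c) that shared 87 bp. SF3B4 had peaks of fold 5.12 (2a) and 6.64 (2b) that shared 114 bp, and SF3A1 had a single peak of fold 5.94 (1a). SF3B3 had none, and its nearest peak lay 45133 bp away.

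Of the later-acting factors, PRPF8, the scaffold of the catalytic centre, had folds of 7.57 (1a), 9.75 (1c), 7.45 (2a), 3.64 (2b) and 3.4 (2c). Libraries 2b and 2c stood at percentiles 2.82 and 2.34, far below the other 3. SNRNP200, the helicase that unwinds U4 from U6, had folds of 6.49 (1a), 5.96 (1c), 7.52 (2a), 5.54 (2b) and 7.59 (2c). PRPF3, a U4/U6 protein, had folds of 5.76 (1a), 6.36 (2a) and 3.77 (2c), and its region of 65 bp lay over its single start site. This region, too, rests on the minimum of 3 libraries, so leaving out any of them necessarily removes it. PRPF31, its U4/U6 partner, had no promoter peak in any library, and the nearest peak was 12548 bp away. PRPF19, the ubiquitin ligase of the activation complex, had peaks of fold 6.04 (2a) and 6.85 (2b) that shared 99 bp, and no peak in replicate 1.

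No gene of the 41 gained or lost a region with windows of 500 bp or 2 kb. Among the genes without a region, the nearest one to any start site was 12580 bp away, at PRPF31 (chr19:54605980-54606210). No splicing gene had a region inside the gene beyond 1 kb from its start sites, against 4.94% of all protein-coding genes.

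The 31 genes carried 44 regions, 11 at SR protein, 22 at hnRNP and 11 at core factor genes. Of the 44 regions, 31 had a peak in all 5 libraries (70.5%), against 58.8% of all promoter regions, and the count was 5 of 11 for SR proteins, 18 of 22 for hnRNPs and 8 of 11 for core factors. The middle of 37 regions lay upstream of the nearest start site (84.1%), against 82.3% of all promoter regions. The median position was -67.8 bp (quartiles -129.8 and -19.9), against -60.5 bp for all promoter regions. By class it was -27 bp for SR proteins, -69.8 bp for hnRNPs and -68.5 bp for core factors. A start site lay inside 28 regions (63.6%), against 70.1% of all promoter regions. The regions were 238 bp wide at the median with a GC content of 69.9%, against 215 bp and 71.1% for all promoter regions. Their median ratio of observed to expected CpG was 1.01, against 0.878 for all promoter regions. These differences from all promoter regions were not tested.

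**Figure D3:**
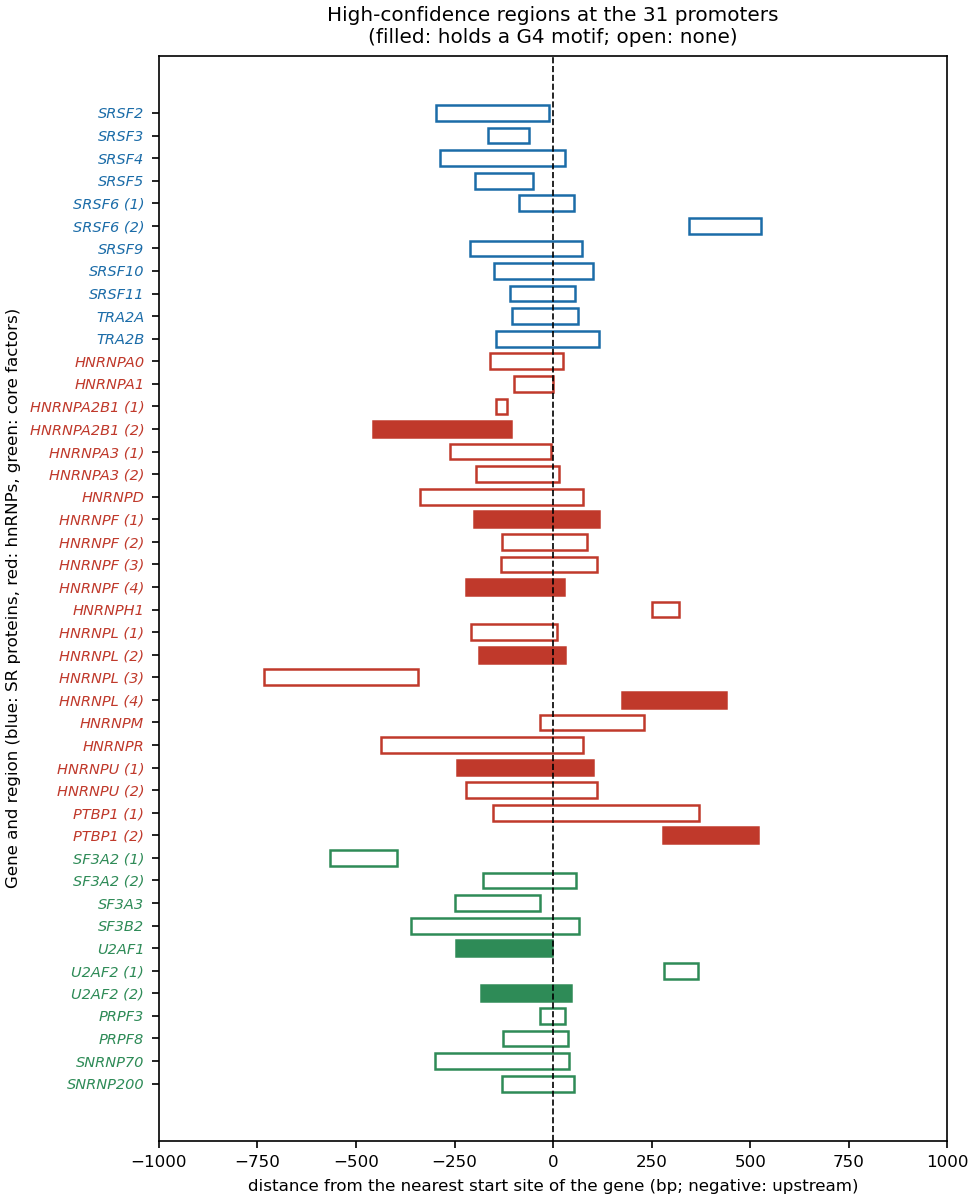
Position of the 44 regions (bars, start to end) relative to the nearest start site of the gene, in bp, negative upstream, with genes as rows by class. Filled bars hold a G4 motif and open bars do not; no SR protein bar is filled, and most bars reach over or lie just upstream of the dashed line at the start site.

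Of the 44 regions, 10 were also within 1 kb of a start site of another protein-coding gene (22.7%), against 16.6% of all promoter regions. The SR protein genes held 5 of them. SRSF2 shared its region (chr17:74733426-74733712) with MFSD11, SRSF9 its region (chr12:120907478-120907762) with the dynein light chain gene DYNLL1, and SRSF11 its region (chr1:70671256-70671420) with LRRC40, each on the opposite strand. Both regions of SRSF6 were shared with ENSG00000288000 on the same strand. HNRNPA2B1 and HNRNPA1 each had a divergent partner of the HP1 family of heterochromatin proteins, CBX3 and CBX5, and SF3A2 had PLEKHJ1. The nearest start site to the middle of the region was that of the partner for SRSF2, SRSF9, the wider region of HNRNPA2B1 (the one whose motif is printed above), the upstream region of SF3A2 and the downstream region of SRSF6. Which of the paired genes the signal belongs to cannot be told apart.

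A G4 motif was present in 9 of 44 regions (20.5%, 95% Wilson interval 11.2 to 34.5), against 2556 of 6848 promoter regions (37.3%). By class it was found in 0 of 11 SR protein regions (up to 25.9%), 7 of 22 hnRNP regions (31.8%, 16.4 to 52.7) and 2 of 11 core factor regions (18.2%, 5.14 to 47.7). The intervals of the classes overlap, and no test was made. Among the 1802 promoter regions with a GC content of 66.3 to 73.4% and a width of 104 to 318 bp, the ranges of the SR protein regions, 521 held a motif (28.9%). The motif was searched on both strands, wholly inside the region, and no match says only that these letters are not in this window. Of the 9 regions with a motif, 6 had it on the coding strand alone and 3 on the template strand alone. Among all promoter regions with a motif, 49.5% had it on the coding strand alone and 40.4% on the template strand alone.

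With loops of up to 12 bases, 3 of 11 SR protein regions (27.3%) held a motif, at SRSF2, SRSF9 and TRA2B, as did 14 of 22 hnRNP regions (63.6%) and 4 of 11 core factor regions (36.4%). The share was 47.7% over the 44 regions, against 53.4% of all promoter regions. HNRNPR and SF3B2 had a motif with loops of up to 12 bases but not with loops of up to 7. With runs of 2 or more G, 37 of the 44 regions (84.1%) held a motif, against 93.8% of all promoter regions. The following pair of SR protein sequences shows both cases. The first is the part of the TRA2B region outside untranslated sequence (chr3:185655892-185656035, - strand), in which capitals mark the motif with loops of up to 12 bases. The second is the same part of the SRSF4 region (chr1:29508413-29508700, - strand), which holds runs of G but no motif under either loop limit and so has no capitals. Both are on the coding strand.
TRA2B: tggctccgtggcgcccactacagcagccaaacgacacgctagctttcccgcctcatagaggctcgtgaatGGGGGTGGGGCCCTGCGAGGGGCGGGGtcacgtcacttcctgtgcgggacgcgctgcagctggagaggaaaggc
SRSF4: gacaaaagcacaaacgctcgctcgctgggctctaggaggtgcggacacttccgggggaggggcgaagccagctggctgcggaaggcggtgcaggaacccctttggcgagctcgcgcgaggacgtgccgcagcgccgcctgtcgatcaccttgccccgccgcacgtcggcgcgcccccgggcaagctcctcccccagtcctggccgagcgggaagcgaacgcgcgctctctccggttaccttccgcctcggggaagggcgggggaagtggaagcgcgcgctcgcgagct

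**Figure D4:**
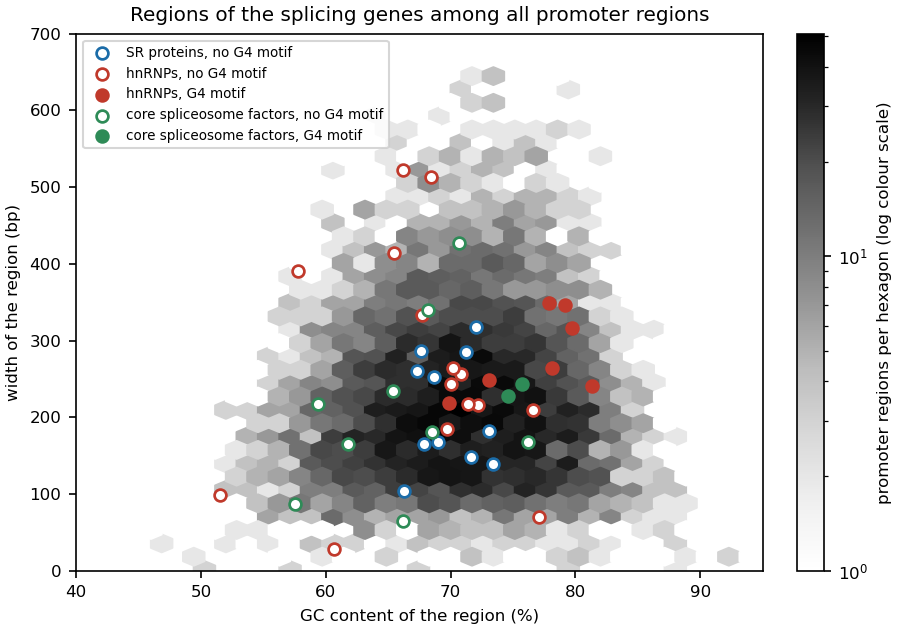
Width (bp) against GC content (%) of the 44 regions (circles, coloured by class, filled where the region holds a G4 motif) over 6818 promoter regions (hexagons, log colour scale); 30 promoter regions with a GC content under 40% or a width over 700 bp fall outside the axes. The SR protein circles are all open and lie between 66.3% and 73.4% GC, while the filled hnRNP circles reach 81.3%.

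Of the 31 regions of splicing genes with a peak in all 5 libraries, 20 had a higher mean fold in replicate 1 than in replicate 2 (64.5%), with a median ratio of 1.14. Among the 4028 such promoter regions of the series, 72.4% were higher in replicate 1, and the median ratio was 1.15. Of the 18 hnRNP regions 12 were higher in replicate 1, as were 6 of the 8 core factor regions and 2 of the 5 SR protein regions. Neighbouring regions of HNRNPF and of HNRNPL that share a peak in some libraries were counted separately. With 2 biological replicates and no second condition, no test over samples was possible.

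Other genes of the splicing pathway were counted in 4 lists, of which 114 genes were used. A region was found at 61 of them (53.5%), where the rates of genes of the same island and start site class give 51.1. The other hnRNP and RNA-binding regulators held 19 of 23 (82.6%), the other SR-related genes 12 of 20 (60%) and the other small nuclear ribonucleoprotein and spliceosome subunits 28 of 53 (52.8%). In the same order, the rates of genes of the same class give 11.1, 9.59 and 22.2. The pooled rate also includes the tissue-restricted regulators, described last, whose count lay below their rate. These differences were not tested. RALY, an hnRNP C relative, ranked highest, with folds of 11.9 (1a), 11.5 (1c), 10.9 (2a), 12.8 (2b) and 12.7 (2c), all at or above percentile 92.2. PTBP3, the paralogue of PTBP1, had folds of 13.8 (1a), 11.6 (1c), 16.7 (2a), 10.1 (2b) and 9.7 (2c). EWSR1 and HNRNPH2 had no region. SNRNP25 and the branch point binding protein gene SF1 led the spliceosome subunits, at or above percentiles 83.2 and 71.1, while BCAS2 and CDC5L of the PRPF19 complex had no peak in any library. LUC7L2 and SON led the SR-related genes, at or above percentiles 76.1 and 67, and CLK1 and LUC7L had no region. SRSF8 and SRSF12, SR proteins by symbol, also had no region. SRSF8 had a single promoter peak, of fold 6.33 in library 2b, and SRSF12 had no peak.

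The tissue-restricted regulators, such as the RBFOX, NOVA, ESRP and neuronal ELAVL and CELF genes, formed the last list. A region was found at 2 of 18 (11.1%, interval 3.1 to 32.8), although 17 of the 18 had a strict CpG island and the rates of genes of the same class give 8.19. The 2 genes were CELF6, with folds of 6 (1a), 5.11 (1c), 5.47 (2b) and 5.63 (2c), and ELAVL3, with folds of 12.4 (1a), 11.7 (1c), 11.8 (2a), 7.78 (2b) and 10.6 (2c). The ELAVL3 region had its middle 957 bp downstream of the start site, at the edge of the window. CELF3 and CELF4 had no peak in any library, as did 13 of the 18 in all. No RNA was measured, so whether these genes were transcribed in the K562 cells used was not tested.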

How the data were processed

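Peaks of the 5 BG4 libraries and the high-confidence list were used as the authors deposited them, on hg19. Peaks were called with MACS2, per the submitters' processing notes, and separately per library, as the separate lists show. The aligner, control library and settings are not given in the sources used here. The deposited fold enrichment is a ratio over local background at the summit, and the deposited score is 10 times the −log10 p without its decimals. The deposited −log10 p and −log10 q belong to each peak's summit, and the lowest −log10 p per list lay between 5 and 5.05. The high-confidence list gives positions alone. Read numbers per library are not given in the sources used here, and depth is therefore unknown.

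Start sites came from the protein-coding transcripts that GENCODE release 44, lifted to GRCh37, gives for protein-coding genes outside the mitochondrial chromosome. A region or peak counted where any base lay within 1 kb of a start site. Sequence was read from the GRCh37 genome. A gene had a strict CpG island where any 500 bp window overlapping its promoter reached both limits. These were a GC fraction of 0.55 and a ratio of observed to expected CpG of 0.65. Values of technical libraries were averaged per biological replicate, so an SD has n = 2. Shares have 95% Wilson intervals. The counting was tested on simulated data. Python 3.11.15, numpy 2.4.6, scipy 1.17.1, pysam 0.24.0 and matplotlib 3.10.9 were used.

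The splicing genes and the other lists were chosen with earlier results of these data known. Values in every library are given for the 4 genes of each class with the highest lowest percentile of the highest promoter peak, and for genes with peaks in 1 to 4 libraries (by range beyond 12 such genes, but all 14 are given). Genes without a peak are named with the nearest peak, and of each other list the 2 best ranked and the first 2 in alphabetical order without a region. SRSF4, SRSF6, SRSF8, SRSF10, SRSF12, SF3A2, SF3A3, SF3B5, SF3B6, PHF5A, PRPF8 and SNRNP200, and the features of HNRNPF, were singled out after their values were seen. MATR3 was left out because 2 annotated genes share that symbol. Alternatives varied the window, start sites, peak threshold, list lengths, libraries and motif. Copy number in K562 and the input libraries were not used.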

Additional observations from a re-analysis of the deposited data

Results flagged for a closer look

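At the intronic HNRNPL region, library 1a had a fold enrichment of 13.5, while the nearest of the other 4 libraries had 8.13. The gap was 0.801 of the whole range of the 5 libraries, above the critical value of 0.71 for 5 samples. At the HNRNPM region, library 2a had a fold of 9.85, while the nearest of the other 4 had 6.72, a gap of 0.922 of the range. These were 2 of 35 groups of 5 libraries tested. Chance would flag about 1 in 20 if libraries and groups were independent. The libraries are technical ones from 2 biological replicates and some groups share peaks, so this rate need not hold.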

How the results depend on the processing

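The count of 31 splicing genes with a promoter region was 31 with windows of 500 bp or 2 kb, and 30 with 1 start site per gene (SRSF11 lost). It was 28 with lists of equal length (HNRNPA1, HNRNPH1 and PRPF3 lost), 25 with a −log10 p of at least 10 (HNRNPA1, HNRNPH1, PRPF3, SNRNP200, SRSF3 and SRSF6 lost) and 22 with regions covered by all 5 libraries. Without 1 library it was 28 to 30. Over all protein-coding genes the share was 34.8%, and 32.7% with 1 start site per gene. It was 30.4% with lists of equal length, 24.9% with a −log10 p of at least 10 and 30.2 to 32.6% without 1 library. SR protein genes with a region covered by all 5 libraries numbered 5, against 10 in the deposited list. All protein-coding genes with a region fell from 6904 to 4370 at the same setting (34.8% to 22%). The cause was not tested. The share of regions with a G4 motif was 47.7% with loops of up to 12 bases and 84.1% with runs of 2 or more G, definitions that any motif of the main kind also meets. It was 25% in regions covered by all 5 libraries and 20 to 22% without 1 library. The median position was -88.2 bp with 1 start site per gene and -71 to -59.5 bp without 1 library. No alternative reversed a direction. Over all results, 83 recomputed values stayed within the limits set and 12 moved. Among the alternatives chosen after seeing the data, leaving out start sites of incomplete or readthrough transcripts gave 31, and counting a region for its nearest gene alone gave 29 (SRSF2 and SRSF9 lost). Over all protein-coding genes these alternatives gave 34.2% and 30.4%. No paired analysis was possible because the K562 BG4 libraries form 1 group, with no second condition to pair. The unknown read depth and copy number limit the reading of absent peaks, since a missing peak in a list of fewer peaks does not show that the structure is absent.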
